A study of Mus musculus with 4 samples.

Results

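The genes described here are the RNA helicases and heterogeneous nuclear ribonucleoproteins (hnRNPs) whose symbols begin with Ddx, Dhx or Hnrnp. Pseudogene names and Ddx3y were left out, which removed 3 names, and 64 of the 29181 gene features in the site lists remained. They comprise 32 Ddx, 14 Dhx and 18 Hnrnp genes, all protein-coding in the RefSeq gene table. At least 1 site was listed in 63 and 64 of them in the wild-type libraries and in 63 and 62 in the knockout libraries.

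The material was mouse retinal organoids, cultured from stem cells and collected on day 4 of differentiation. The wild-type (WT) group was 2 libraries of the Rx:GFP line, which carries a fluorescent reporter of the eye-field gene Rax, and the Mettl3 knockout (KO) group was 2 libraries made in that line. Per the labels' protocols the KO cells also carried a doxycycline-inducible, HA-tagged METTL3, no doxycycline is recorded, and both groups received AGN at 0.1 µM in a serum-replacement medium. The number of knockout clones is not given, all 4 libraries have 1 batch label, and nothing says whether replicates came from separate cultures, so p-values measure the spread between these libraries only.

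N6-methyladenosine (m6A) is a methyl mark on adenosines of mRNA, written mainly by a complex whose catalytic subunit is METTL3, and it is known to affect splicing, export, translation and decay. DEAD-box (Ddx) and DEAH-box (Dhx) helicases use ATP to remodel RNA and RNA-protein complexes at each of those steps, while hnRNPs coat nascent transcripts and act on splicing and mRNA stability. Some hnRNPs, among them hnRNPA2B1 and hnRNPC, have been linked to the reading of m6A or of RNA structure near it.

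The assay was GLORI, in which glyoxal and nitrite deaminate unmodified adenosine so that it is read as G, while m6A stays A. The level of a site is the fraction of its reads with an unconverted A, and its coverage is its number of reads with A or G. The lists held 215850 to 288516 sites per library, with a median coverage of 38 to 41 reads. The lowest coverage in any list was 15 reads, the lowest number of unconverted reads 5 and the lowest level 0.1, so a site can be absent for a lower level, for too few reads or for a filter that the lists do not show. Among eye-field markers, Rax had 20 and 35 sites in WT and 0 in both KO lists. Six3 had 54 and 56 against 14 and 15, Lhx2 had 38 and 48 against 11 and 5, Pax6 had 48 and 70 against 47 and 44, and Six6 had none in any list. The 4 midbrain and dorsal neural markers summed to 31 and 38 sites in WT and 89 and 50 in KO. Of these, Pax3 had 0 and 0 against 36 and 12, Wnt1 1 and 1 against 16 and 13, and En1 2 and 2 against 7 and 7. Pax2 had 28 and 35 against 30 and 18, which overlapped. The 4 pluripotent markers summed to 26 and 30 sites in WT and 14 and 13 in KO. Of these, Pou5f1 had 9 and 10 against 4 and 4, and Zfp42 8 and 2 against 0 and 0. Nanog, with 9 and 17 against 10 and 9, and Klf4, with 0 and 1 against 0 and 0, did not separate the groups. The marker values above are counts of m6A sites, not of RNA. Deposited gene coverage, divided by each library's median over genes, was 16.3 and 17.6 for Six3 in WT and 1.80 and 2.45 in KO. Lhx2 had 4.26 and 4.61 against 0.636 and 0.628, and Wnt1 0.409 and 0.302 against 1.33 and 1.87. Pax6 overlapped, at 2.22 and 2.23 against 2.61 and 2.23. Rax had no KO value and Pax3 no WT value. Whether the makeup of the organoids differed, and its part in the results below, was not tested.

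The helicase and hnRNP genes had 2021 and 2449 sites in the WT lists and 1833 and 2021 in those of the KO. The groups overlapped, and the mean KO count was 0.862 times the wild-type mean (two-sided exact permutation test, p = 0.667; with 2 libraries per group this test cannot give less than 0.33). These sites made up 0.889% and 0.849% of all listed sites in WT and 0.796% and 0.936% in KO. Their median coverage was 48 and 50 reads in WT and 49 and 44 in KO, which also overlapped.

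The median level of listed sites was lower in both KO libraries. The median over member sites was 0.206 and 0.205 in WT and 0.185 and 0.20 in KO, a difference of -0.013 with no overlap between the groups (exact permutation p = 0.33). All listed sites together had medians of 0.246 and 0.241 in WT and 0.213 and 0.232 in KO. The deposited conversion rate moved with it: the median over 58 member genes was 96.3% and 96.6% in WT and 97.2% and 96.7% in KO, and its part in the difference was not tested.

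The groups differed most among sites of high level. Member sites with 50 or more reads and a level of 0.3 or more, called high-level here, numbered 94 and 137 in WT and 49 and 50 in KO. The KO mean was 0.429 times the wild-type mean, against 0.448 times over all listed sites (13243 and 19263 in WT, 6974 and 7599 in KO). At a level of at least 0.5 the member counts were 24 and 44 against 8 and 13, and at 0.7 or more they were 14 and 22 against 2 and 4. Between 0.1 and 0.2, by contrast, they were 730 and 924 against 726 and 713, a KO mean 0.870 times the WT mean, against 0.167 times at 0.7 or more. Over all listed sites the KO mean was 0.274 times the WT mean at 0.5 or more and 0.211 times at 0.7 or more. Between 0.1 and 0.2 it was 0.924 times, so the same gradient held over the whole lists. Each of the member counts had both KO libraries below both wild-type libraries, with an exact permutation p of 0.33.

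**Figure D1:**
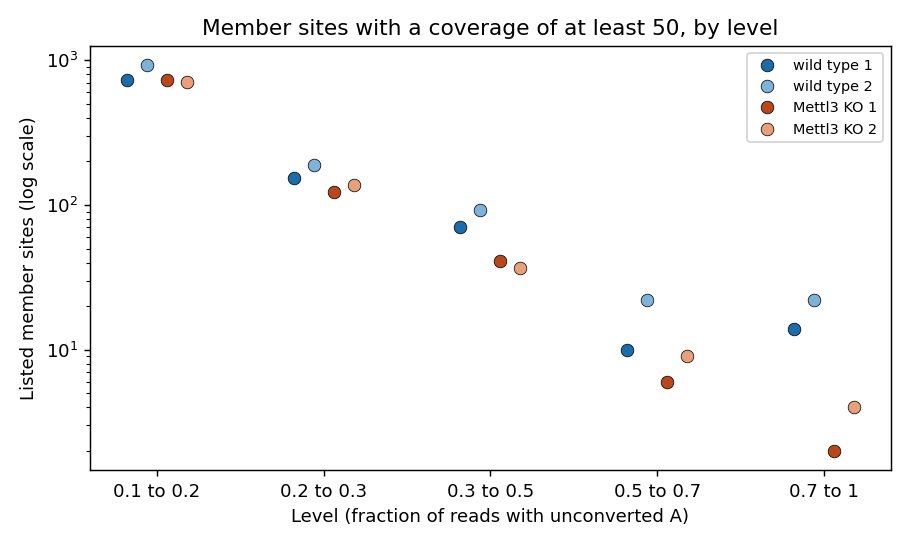
Listed sites of the helicase and hnRNP genes with a coverage of at least 50, by class of level (x axis) and as a count on a log scale (y axis), 1 point per library. In the class from 0.7 to 1 the wild-type libraries hold 14 and 22 sites and the KO libraries 2 and 4.

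High-level sites were found in 44 and 51 of the genes in WT and in 25 and 31 in KO. In WT 40.4% and 43.8% of them lay within 3000 bases of the annotated gene end, where m6A of mRNA is known to be dense, against 16.3% and 24.0% in KO. For sites at a level under 0.2 these shares were 37.8% and 36.7% in WT and 33.2% and 46.0% in KO, which overlapped. Over protein-coding genes the high-level shares were 57.9% and 51.3% in WT and 38.2% and 40.9% in KO, so the same order held there. Of the high-level sites, 20.2% and 21.9% in WT and 34.7% and 30.0% in KO carried a chromosome-wide coverage value in place of a value of their gene.

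All 3 families held fewer high-level sites in both KO libraries. Ddx genes held 48 and 70 in WT and 24 and 26 in KO, Dhx genes 13 and 29 against 10 and 11, and Hnrnp genes 33 and 38 against 15 and 13. By role, the helicases of mRNA export, translation and decay held 18 and 19 in WT and 7 and 2 in KO. The A/B, C and D type hnRNPs, which bind nascent transcripts, held 18 and 16 against 5 and 5. Ribosome biogenesis helicases, which process pre-ribosomal RNA in the nucleolus, held 17 and 23 in WT and 7 and 8 in KO. Spliceosome and pre-mRNA helicases held 19 and 41 in WT and 17 and 20 in KO, and there the groups overlapped. The mitochondrial, RNA sensing, genome and germline helicases held 7 and 16 against 3 and 7, which met at 7. The K, L, M, R and U type hnRNPs held 13 and 17 against 8 and 6. The 3 hnRNP F/H genes had few, 2 and 5 against 2 and 2. Over the roles the KO mean ran from 0.243 times the WT mean (export, translation and decay) to 0.617 times (spliceosome), on both sides of 0.448. No difference between the roles, or of a family or role from all listed sites, was tested.

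Most member sites were listed once. Of 7663 sites in any list, 7060 (92.1%) were in 1 list, 550 in 2, 48 in 3 and 5 in all 4. The wild-type lists shared 215 sites in 57 genes, and the KO lists shared 94 sites in 37 genes. The 215 were 10.6% and 8.78% of the respective wild-type lists, and the 94 were 5.13% and 4.65% of the KO lists. Over all sites these shares were 12.6% and 9.94% in WT and 5.16% and 5.50% in KO. A WT and a KO list shared 4.33% to 5.78% of their member sites, about as many as both KO lists did. At sites with 50 or more reads in both lists of a group, the levels in the 2 wild-type libraries had a Pearson correlation of 0.88 over 146 sites. In the 2 KO libraries it was -0.03 over 46 sites, whose levels span a narrow range: the highest mean was 0.295 among them. These are descriptions across sites, which share libraries and genes.

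Of 203 sites shared by the wild-type lists with a coverage of at least 20, 177 were in neither KO list, 87.2% (Wilson 95% interval 81.9% to 91.1%, counting error only). Over all protein-coding genes the share was 83.4% of 21822 sites. In the other direction, 56 of 86 member sites shared by the KO lists were in neither wild-type list, 65.1% (54.6% to 74.3%), against 72.9% of 8634 over protein-coding genes. The KO reads expected at a site can be estimated as its wild-type coverage times the ratio of the gene's KO to wild-type coverage, taking the lower of the estimates from both wild-type libraries. Where this was at least 50 in both KO libraries, 84 of 99 shared wild-type sites were still absent, 84.8% (76.5% to 90.6%), against 80.5% of 10431. With a level of at least 0.3 in both wild-type libraries, 42 of 43 were absent, against 86.1% of 6832 over protein-coding genes. The difference between the members and other genes was not tested.

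High level was shared by both wild-type lists at 30 sites in 19 genes, and 29 of them were in no KO list. Over all protein-coding genes, 85.7% of 3708 such sites were in no KO list. No member site was of high level in both KO lists. All protein-coding genes together had only 107 such KO sites, against the 3708 of the wild type, so this 0 carries little weight. In 22 of the 30, expected KO coverage was at least 50 in both KO libraries, and 21 of those were in no KO list. Another site of the same gene was listed within 100 bases in both KO lists for 12 of the 30 and in at least 1 for 22, while 8 had no such neighbour in either. The gap between the wild-type levels of a site had a median of 0.043 and reached 0.374, at Dhx35.

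**Figure D2:**
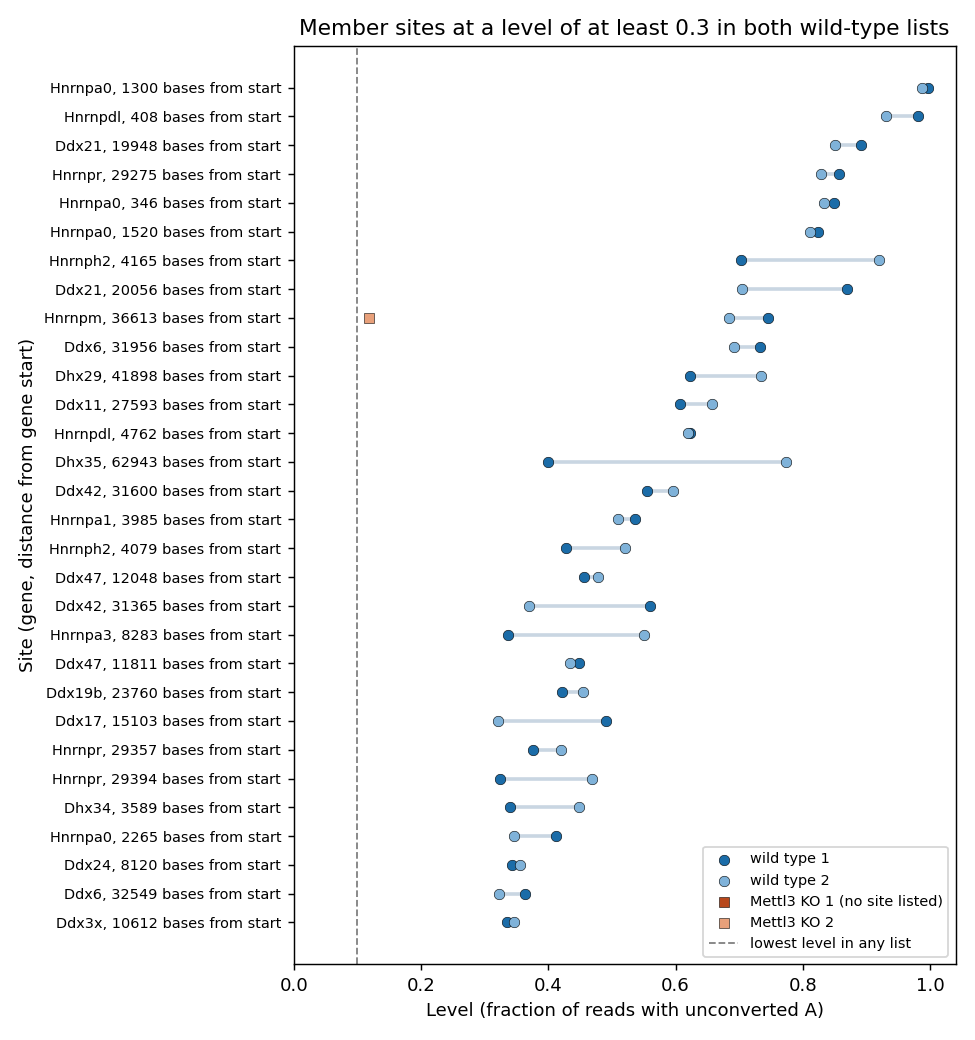
The 30 sites of high level in both wild-type lists, by gene and distance from the gene start (y axis) and level (x axis), 1 point per library in which the site was listed. A KO point is present at 1 site, in Hnrnpm, at a level of 0.119, and the dashed line marks the lowest level in any list, 0.1.

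The A/B, C and D type hnRNPs held 8 of the 30 sites, and Hnrnpa0, an intronless gene for a protein that binds AU-rich RNA, held 4. Of the 30 sites, 13 were deposited with the name of another feature, as were Ddx21 (Kifbp), Ddx6 (Gm47234), Dhx29 (Ccno), Hnrnpm (Pram1) and Hnrnpr (Gm27022) among the sites below, and were placed here by their coordinates. Positions are given as in the deposited lists, whose genome build is not established, and exons and untranslated regions were not analysed here. Hnrnpa0 spans bases 58273693 to 58276370 of chromosome 13. Its site at chromosome 13, position 58275070 on the minus strand, 1300 bases from the gene start, had levels of 0.996 and 0.987 from 4674 and 6842 reads in WT. It was in neither KO list, although 6449 and 5177 reads were expected there. The nearest listed site in the first KO library lay 45 bases away and had 4114 reads at a level of 0.125. In the second KO library the nearest was 188 bases away, with 261 reads at 0.107.

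Positions 58276024 and 58274850 of Hnrnpa0 also stood high, at 0.849 and 0.834 for the former (365 and 469 reads) and 0.824 and 0.812 for the latter (626 and 851 reads). The gene as a whole had 19 and 18 sites in WT, with 6 and 4 of high level, and 9 and 15 in KO, with 0 of high level. The highest level of any Hnrnpa0 site was 0.164 and 0.226 in KO libraries. Gene coverage of Hnrnpa0 overlapped between the groups. As a multiple of each library's median over genes it was 17.7 and 22.1 in WT and 23.0 and 21.3 in KO (log2 change 0.16 ± 0.18 SE, limma adjusted p = 0.631).

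**Figure D3:**
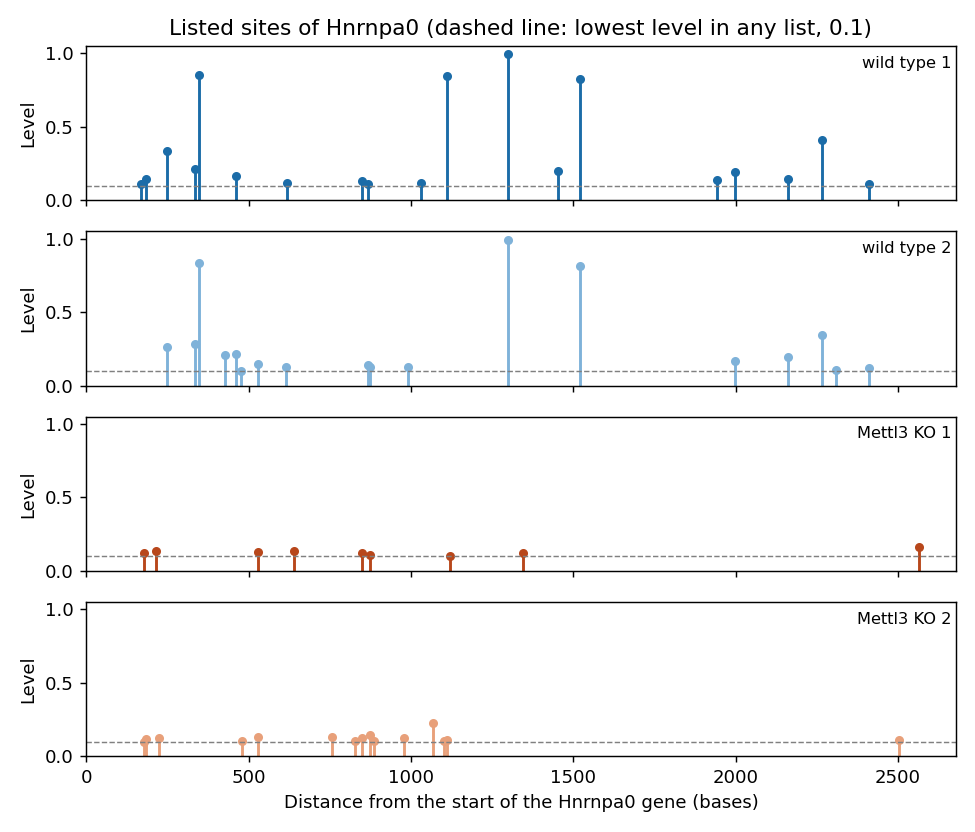
Listed sites of Hnrnpa0 in each library, by distance from the gene start in bases (x axis) and level (y axis); the dashed line is the lowest level in any list. Both wild-type libraries show tall sites near 346, 1300 and 1520 bases, and the first alone shows a tall site near 1112 bases, at 0.842. KO sites reach 0.164 and 0.226.

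Hnrnpdl, a paralog of Hnrnpd known to regulate splicing of its own mRNA, had a site at chromosome 5, position 100187115, at 0.982 and 0.932 in WT, from 55 and 73 reads. A second Hnrnpdl site, position 100182761, was measured far more deeply: 0.622 of 1582 reads and 0.620 of 1490. Hnrnpa1, a splicing repressor, had a site at chromosome 15, position 103152844, at 0.537 and 0.509 from 1879 and 2513 reads. None of these 3 was in a KO list. At the first Hnrnpdl site only 59 and 43 KO reads were expected, and the nearest listed KO sites, 4 and 6 bases away, had 86 and 67 reads. At least 1199 KO reads were expected at each of the latter pair of sites. For that pair the nearest listed KO sites had far fewer: 425 and 179 reads near the second Hnrnpdl site, 243 and 66 bases away, and 41 and 66 reads near the Hnrnpa1 site, 481 and 121 bases away.

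Hnrnpr, a neuronal and nuclear hnRNP, had a site at chromosome 4, position 136067528, at 0.857 and 0.829 from 461 and 550 reads, with 629 and 438 expected in KO, where the nearest listed sites had 69 and 48 reads, 181 and 376 bases away. Hnrnpm, a splicing regulator, supplied the exception. Its site at chromosome 17, position 33869221, had levels of 0.745 and 0.684 from 235 and 342 reads in WT, was missing from the first KO list and stood at 0.119 from 101 reads in the second. Hnrnph2, an X-linked hnRNP that binds G-rich RNA, had a site at chromosome X, position 133506093, at 0.703 and 0.920, but from only 64 and 75 reads, with 47 and 38 expected in KO.

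Among the helicases, Ddx21, a nucleolar protein of ribosomal RNA synthesis and processing, had sites at chromosome 10, positions 62418112 and 62418004. The former stood at 0.891 and 0.851 from 92 and 148 reads and the latter at 0.869 and 0.704 from 84 and 108. Ddx6, which acts in mRNA decay and translational repression, had one at chromosome 9, position 44548145, at 0.733 and 0.692 from 165 and 452 reads. Dhx29, a helicase of translation initiation on structured mRNA, had one at chromosome 13, position 113105886, at 0.623 and 0.734 from 69 and 64 reads, 80 bases from the gene end. These 4 sites were in no KO list, and at the Dhx29 site only 39 and 41 KO reads were expected.

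The sites that the KO lists shared were of lower level. The highest mean level with a coverage of at least 50 in both was at Ddx5 (chromosome 11, position 106671181, deposited as Polg2), a coactivator and splicing helicase, at 0.130 and 0.459. This Ddx5 site lay 0 bases from the annotated gene end. Hnrnpul2 (chromosome 19, position 8811056, deposited as Bscl2) followed at 0.308 and 0.174, a site inside 2 features of the same strand. Ddx21 (chromosome 10, position 62424541, deposited as Kifbp) came next at 0.133 and 0.33. Ddx31 (chromosome 2, position 28794786, deposited as Barhl1) had 0.198 and 0.265. These 4 were in no wild-type list. Hnrnpa2b1 (chromosome 6, position 51440213) had 0.138 and 0.289 in KO and 0.124 in 1 wild-type library. At a level of 0.7 or more with a coverage of at least 50, the KO lists held 6 member sites, in Ddx46, Hnrnpc, Dhx35, Ddx28 and Ddx10. Each was in 1 list only, and 5 of the 6 carried a chromosome-wide coverage value.

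A site of high level in 1 wild-type list was found in the other wild-type list more often than in a KO list. Of the 94 high-level member sites of the first wild-type library, 41 (43.6%) were in the second wild-type list at any level, 0 in the first KO list and 6 (6.38%) in the second. For protein-coding genes these shares were 46.6%, 7.25% and 7.38%. Of the 137 of the second wild-type library, 48 (35.0%) were in the first, 4 (2.92%) in the first KO list and 6 (4.38%) in the second, against 38.1%, 6.52% and 6.34%. Of the 49 high-level sites of the first KO library, 2 were in the other KO list and 4 and 6 in the WT lists. Of the 50 of the second, 3 were in the other KO list and 4 in each WT list. Over protein-coding genes 7.64% and 8.60% of KO high-level sites were in the other KO list. Most high-level sites of 1 wild-type library were thus absent from the list of its own replicate. Hnrnpa0 gives an example at position 58275258, which had a level of 0.842 from 304 reads in the first wild-type library, was missing from the second and stood at 0.107 in the second KO library.

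Level can be tested directly at sites found in every list with 20 or more reads, and 5 member sites qualified. None passed (edgeR quasi-likelihood test, adjusted p under 0.05; 2.57% of 1557 sites over all genes passed, all of them lower in KO). None had an unadjusted p under 0.05, and limma also called 0. The largest change was at Ddx17, a paralog of Ddx5, at chromosome 15, position 79417461, with levels of 0.135 and 0.108 in WT and 0.151 and 0.279 in KO (log2 change in odds 0.95 ± 0.43 SE, adjusted p = 0.724). Hnrnpa3 at chromosome 2, position 75489736 had 0.233 and 0.231 against 0.185 and 0.182, Hnrnpab at chromosome 11, position 51490932 had 0.219 and 0.184 against 0.127 and 0.212, and a second Ddx17 site, position 79416029, had 0.149 and 0.114 against 0.102 and 0.203. A site that drops under the list minimum in any library cannot enter this test.

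For the number of listed sites per gene, 0 of the 63 members tested passed (edgeR quasi-likelihood test with all listed sites as the library size; 2.47% of 10759 features passed, 1.34% lower and 1.13% higher). At an unadjusted p under 0.05 there were 6 members, against 14.1% of features, and DESeq2 called 0. The median log2 change was -0.002 over the members and 0.017 over all features tested. Hnrnpu, a nuclear scaffold protein, held the most sites, 105 and 129 in WT and 113 and 103 in KO, so the groups overlapped. Ddx17 had 78 and 87 against 76 and 105, and Hnrnpk, a poly(C)-binding hnRNP, 49 and 71 against 37 and 54, which also overlapped. Ddx6, with 63 and 67 against 50 and 62, was lower in both KO libraries by count. With all listed sites as the library size its log2 change was -0.01 (edgeR adjusted p = 0.994).

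Also lower by count in both KO libraries was Hnrnpd, known for its binding of AU-rich elements, with 73 and 100 against 53 and 40 (edgeR adjusted p = 0.105). So was Ddx46, a helicase of early spliceosome assembly, with 65 and 84 against 52 and 55 (edgeR adjusted p = 0.703). Dhx36, which unwinds G-quadruplexes, had 69 and 63 against 50 and 42 (edgeR adjusted p = 0.637). The smallest adjusted p belonged to Hnrnpm, with 70 and 72 against 32 and 36 (log2 change -0.86 ± 0.27 SE, edgeR adjusted p = 0.0548). Its value over the alternatives ranged from 0.0481 to 0.649. Both KO shares were below both wild-type shares in 16 of the 63 members, against 21.4% of all features, and above them in 12, against 21.9%.

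**Figure D4:**
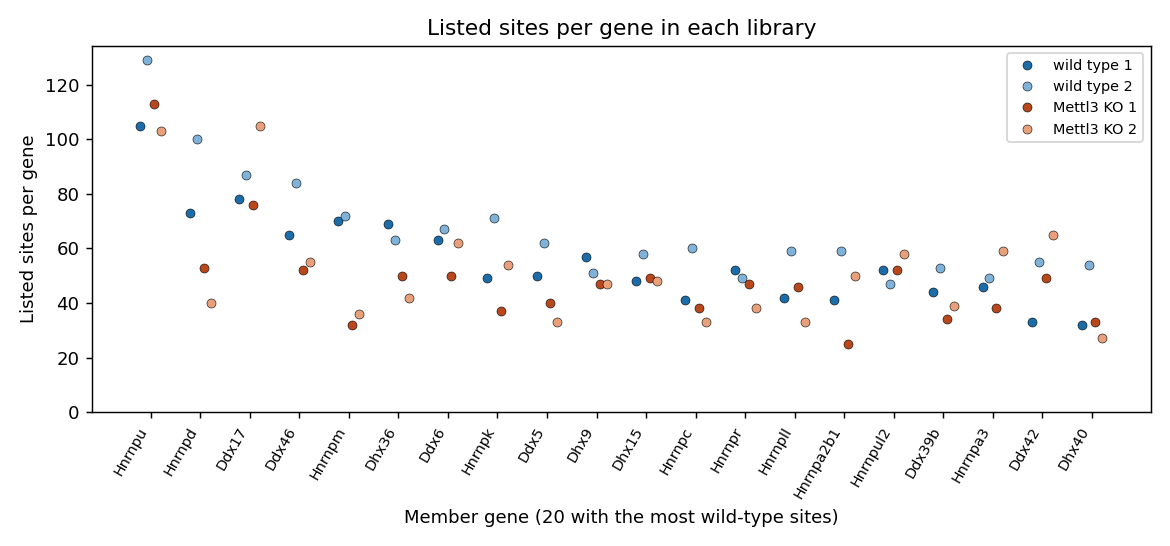
Listed sites per gene (y axis) for the 20 helicase and hnRNP genes with the most wild-type sites (x axis), 1 point per library. Hnrnpm has 70 and 72 sites in WT and 32 and 36 in KO, while Hnrnpu and Ddx17 overlap between the groups.

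High-level sites per gene could be tested in 26 members, and 0 passed (edgeR quasi-likelihood test; 1.52% of 2825 features passed, all lower in KO). At an unadjusted p under 0.05 there were 4 members, all lower, against 20.4% of features (20.0% lower and 0.425% higher), and DESeq2 called 0. On simulated data this test recovered few of the changed genes, so 0 calls carry little weight. Ddx42, a helicase associated with the U2 snRNP, had 3 and 8 high-level sites in WT and 0 in both KO libraries (adjusted p = 0.0544), although its count of all sites was 33 and 55 against 49 and 65. Hnrnpa0 had 6 and 4 against 0 and 0 (adjusted p = 0.0732), Ddx6 had 6 and 6 against 2 and 0, and Ddx11, a DNA helicase of sister chromatid cohesion, had 2 and 4 against 0 and 0. Ddx42, Hnrnpa0 and Ddx11 reached the minimum of 6 such sites through their wild-type counts alone. Their lower direction was therefore fixed by this filter. As a share of all listed sites, both KO values were below both wild-type values in 10 of the 26 and above them in 1, against 48.4% and 4.81% of features. With a coverage of at least 100 instead of 50, Hnrnpa0 and Ddx6 were called lower, of 4 members tested, while 60.1% of 439 features were called. The same minimum of 6 applied there, so Hnrnpa0 again passed it through wild-type counts alone.

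Gene coverage, the authors' deposited coverage value of a gene, had a single value in all 4 libraries for 58 members; Ddx5, Ddx18, Ddx39b, Dhx58, Hnrnpd and Hnrnpk lacked one in at least 1 library and were not tested. It was divided by each library's median over genes. In bulk samples fewer cells of a type and less RNA per cell cannot be told apart. Of the 58, 1 was called lower and 0 higher (limma on log2 values, adjusted p under 0.05), while 5.81% of 8255 genes were called in either direction, 3.14% lower and 2.68% higher. The called gene was Ddx3x, an X-linked helicase of translation initiation, at 6.71 and 8.15 times the median in WT and 5.15 and 3.88 in KO. This is a log2 change of -0.73 ± 0.19 SE (limma adjusted p = 0.0496). The adjusted p ranged from 0.0204 to 0.268 over 10 alternatives, and without the first KO, the second KO or the second wild-type library the call was lost, at log2 changes of -0.93, -0.52 and -0.59. It was also lost with quantile normalization (adjusted p = 0.0901) and with the most frequent value of genes that have several (adjusted p = 0.0666). The listed sites of Ddx3x numbered 35 and 34 in WT and 25 and 63 in KO.

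**Figure D5:**
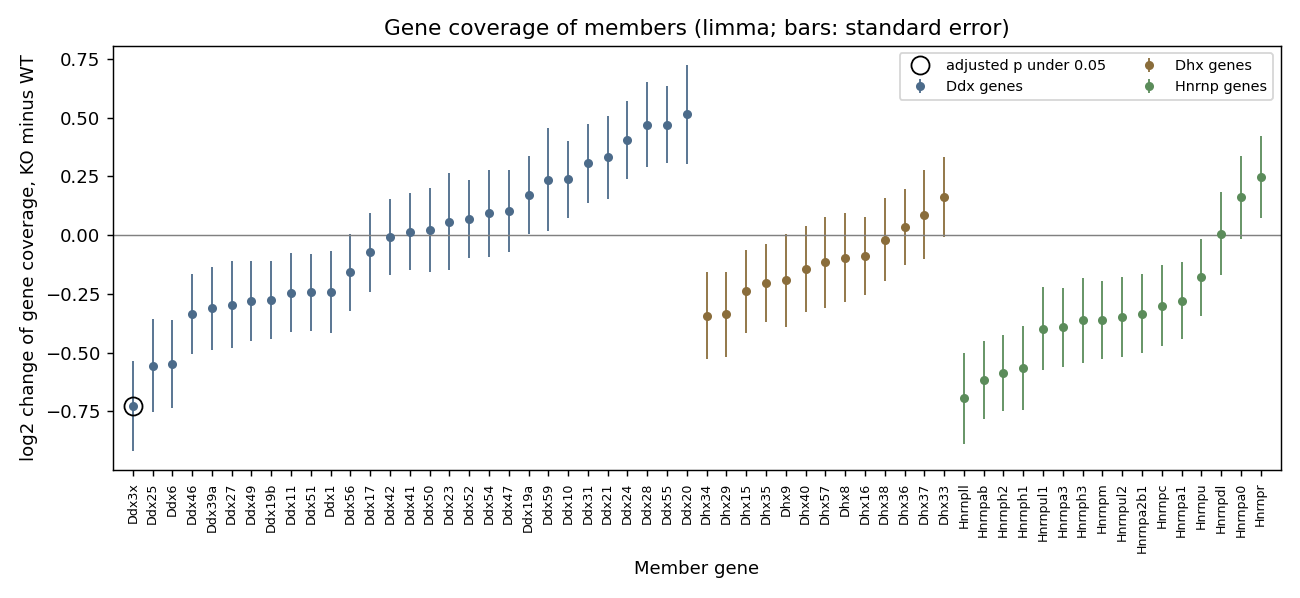
Change of gene coverage (KO minus wild type, log2, y axis) with its standard error from limma for 58 helicase and hnRNP genes (x axis), ordered within each family. The circle marks Ddx3x at -0.73, and 13 of 16 Hnrnp genes lie below 0.

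Values below 0 were frequent among the Hnrnp genes: 13 of 16 tested, with a median log2 change of -0.35, against a median of -0.02 over all genes. Without centring of the libraries, which moves the median of all genes to -0.13, 14 of 16 were below 0 and their median was -0.47. With quantile normalization 13 of 16 were below 0 and the median shrank to -0.24, so its size depends on the scaling. None of the 16 passed the test. The values nearest to it were those of Hnrnpab, a transcription and RNA-transport factor, at 14.6 and 15.7 times the median in WT and 10.5 and 9.20 in KO (log2 -0.62 ± 0.17 SE, limma adjusted p = 0.0548). Hnrnph2 had 2.18 and 2.18 against 1.52 and 1.39 (adjusted p = 0.0584), and Hnrnpll, a splicing regulator, had 2.89 and 2.95 against 2.16 and 1.51 (adjusted p = 0.0585). Only Hnrnpr, Hnrnpa0 and Hnrnpdl had changes above 0, of 0.25, 0.16 and 0.01.

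The helicases were more mixed. The 29 Ddx genes had 14 values below 0 and a median of 0.02, and the 13 Dhx genes had 10 below 0 and a median of -0.12. By role, 10 of 14 ribosome biogenesis helicases had values above 0 (median 0.10), but without centring only 6 did. The largest value among these was 0.47 for Ddx55, at 0.476 and 0.455 times the median in WT and 0.619 and 0.671 in KO, which did not pass (adjusted p = 0.115). Ddx28, a mitochondrial helicase of ribosome assembly, had 0.744 and 0.907 against 1.25 and 1.03. Both KO values were below both wild-type values in 29 of the 58 genes, against 2433 of all 8255 genes tested (29.5%). They were above them in 10 of the 58, against 2040 of 8255 (24.7%). The difference of the members from all genes was not tested.

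Genes of like function under other names were tested in the same fits. Of 20 tested hnRNP-type proteins such as the PTB and poly(C)-binding families, 18 had values below 0 with a median of -0.24, and 1, Rbmx, an X-linked splicing factor, was called lower in coverage. With quantile normalization 16 of the 20 were below 0, with a median of -0.21. Rbmx stood at 1.23 and 1.28 times the median in WT and 0.770 and 0.592 in KO (log2 -0.89 ± 0.18 SE, limma adjusted p = 0.0179) and was also lower in sites per gene (edgeR adjusted p = 0.0242). Of 9 tested helicases of other names, 1, Snrnp200, which unwinds U4/U6 in the spliceosome, was called lower (log2 -0.75 ± 0.18 SE, limma adjusted p = 0.0390), and the median was -0.04. No member of either list was called higher in coverage.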

How the data were processed

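Each library had 1 deposited list of m6A sites. Per the file headers, the authors gave each site read counts (A plus G, and unconverted A), their ratio as a fraction (the level), p-values, and the coverage signal and conversion fraction of its gene. The aligner and caller are not given in the sources used here. The submitters' processing notes name mm10, but 0 of the 64 members began within 1000 bases of their GRCm38 start, so positions are printed as the lists give them and their build is not established. No genome was used, so no sequence is printed.

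Repeated entries (28 to 53 per list) were collapsed. Sites were placed in same-strand features around them, and 98.3% of member sites lay in exactly 1. Value pairs that spanned over 20000000 bases on both strands (18.4% to 24.3% of sites) were taken as chromosome-wide, and genes with several values were left out. Sites per gene and site levels were tested with edgeR 4.0.16, gene coverage with limma 3.58.1 (R 4.3.3), with DESeq2 1.42.0 as an alternative, all over every feature, at a Benjamini-Hochberg adjusted p under 0.05. A gene needed at least 10 sites in all, or 6 of high level. Single values had exact permutation tests (scipy 1.17.1). The treatment of duplicate reads is not given in the sources used here, so intervals cover counting error only. The fits were tested on simulated data, and alternatives covered normalization, filters, a replicate block and leaving out each library.

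Named genes were the 8 members with the most wild-type sites, members past a threshold, the 4 largest changes among tested sites, and the 10 wild-type and 6 KO shared sites of highest mean level (at most 2 per gene); other names were chosen after their values were seen. The members and lists were chosen with earlier results of these data known, and the relisting and neighbouring-site counts were added after seeing the data.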

Additional observations from a re-analysis of the deposited data

Results flagged for a closer look

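The conversion rate of genes, a deposited value outside the main comparisons, differed between the groups. Its median over 58 helicase and hnRNP genes was 0.508 percentage points higher in KO than in WT (96.3% and 96.6% in WT, 97.2% and 96.7% in KO). Both KO values lay above both wild-type values in 28 of the 58 genes and below them in 4, against 50.0% and 3.66% of all genes. Over all genes the medians were 96.1% and 96.2% in WT and 97.2% and 96.6% in KO, a difference of 0.756 percentage points.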

How the results depend on the processing

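The counts of called members were small and moved with the settings. For gene coverage, 1 of 58 members and 480 of 8255 genes were called. With genes of at least the 25th percentile of coverage, 5 of 50 members were called, against 778 of 6191 genes. These were Ddx3x, Hnrnph1, Hnrnpab, Hnrnpll and Hnrnph2. Without centring there were 2 of 58 (404 of 8255 genes), and with a replicate block 2 of 58 (585 of 8255 genes). With quantile normalization there were 0 of 58 (455 of 8255 genes), and with the most frequent gene value 0 of 62 (355 of 8679 genes). The replicate numbers were not taken as pairs. Deviations of same-numbered libraries correlated at -0.03 for coverage and -0.06 for sites per gene. With 2 libraries per group this shows no shared shift but cannot tell whether libraries were made in pairs. The replicate block changed no other count of members. For high-level sites per gene, against 0 of 26 members, there were 2 of 4 tested with a coverage of at least 100. At a level of at least 0.5 only 1 member was tested, Hnrnpa0, and it was called. It had 4 and 3 such sites in WT and 0 in both KO libraries. It thus passed the minimum of 6 through wild-type counts alone, which fixed its lower direction. For sites per gene, against 0, there was 1 with TMM normalization (Hnrnpm) and 0 to 2 when a library was left out; the 2, Ddx3x and Ddx28, were higher without the first KO library. Over all features, 480 genes were called for coverage, and 778 with the percentile filter; without a library the count fell to as low as 20. Sites per gene gave 266 calls, and 40 with DESeq2, 143 with the block, 130 with a coverage of at least 30 and as few as 55 without a library. High-level sites gave 43, and 0 with DESeq2 or TMM, 2 with the block, 12 without the filter, 130 of 472 tested at a level of at least 0.5, 264 of 439 tested at a coverage of at least 100, and as few as 0 without a library. Site levels gave 40, and 26 without the first KO library.

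The median level, the count of member sites and the count of high-level sites kept their direction under all alternatives run for them. The difference in median coverage (-2.5 reads) went to 0 without the second KO library and was -5.0 without the first. Of member sites common to both WT lists, the share found in no KO list was 97.7% at a level of at least 0.3, and 92.1% to 92.6% when only 1 KO list was asked. Single values near 0 changed sign. For sites per gene, Hnrnpu was -0.038 and Ddx6 0.045 with a coverage of at least 30, and Ddx6 was 0.020 with unique placement. Without a library Ddx6 ranged from -0.22 to 0.18 and Hnrnpk from -0.53 to 0.11. For site levels the ranges without a library were -0.74 to 0.14 for Hnrnpab at 51490932, -0.38 to 0.77 for Ddx17 at 79416029 and -0.35 to 0.47 for Hnrnpa3 at 75498704. For reversed values the cause was not tested. Depth limits these results, since most listed sites have under 50 reads and a site below the list minima leaves no value.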
